A study of Mus musculus with 2 samples.

Results

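Pomt1 and Man1b1, which encode a mannosyltransferase and a mannosidase of the secretory pathway, are 2 genes of chromosome 2 named by the authors at 2 of the 229 peaks of HDAC4 in proliferating C2C12 myoblasts. They were selected from the peak table by gene name because each had a called peak over input, so their pileup, fold enrichment, p-value and q-value are given as a description and were not tested. C2C12 is an immortalized myoblast line of C3H mice, used here at passages 30-32. Cells spent 24 hours in growth medium (GM), and their cross-linked, sonicated chromatin gave 1 library precipitated with an anti-HDAC4 antibody (HDAC4 ChIP) and 1 input library made with no antibody. Neither library had a replicate, cells lacking HDAC4 were not analysed here, and the rabbit IgG control that the protocol names was not analysed here either, so the intervals cover counting error only and the specificity of the antibody was not tested.

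HDAC4 is a class IIa histone deacetylase that has no DNA-binding domain of its own and reaches chromatin through other proteins, of which the MEF2 factors are the best known in muscle. POMT1 works with POMT2 in the endoplasmic reticulum, where the complex attaches the first mannose to serine or threonine of alpha-dystroglycan. That sugar is the base of the long glycan by which dystroglycan holds the muscle fibre to laminin, and loss of POMT1 causes congenital and limb-girdle muscular dystrophies in humans. MAN1B1 removes mannose from the N-glycans of glycoproteins and takes part in directing misfolded glycoproteins to degradation, and its loss causes a congenital disorder of glycosylation in humans.

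The Pomt1 peak lay at chr2:32236456-32236804 and the Man1b1 peak at chr2:25332635-25332955 (mm10, the same assembly as GRCm38, 1-based). Both overlapped the first exon of the gene. The sequences below run from the left edge of each peak to 20 bases past the start of the main protein-coding transcript in GENCODE M21, on the plus strand, the strand of both genes. They are shown because they hold the short words that the promoters of both genes shared. Capitals mark matches, on either strand, of GCGCANGCG, the core of the site known for the transcription factor NRF1. The letters were read from the RefSeq copy of GRCm38.p6.
Pomt1 chr2:32236456-32236609: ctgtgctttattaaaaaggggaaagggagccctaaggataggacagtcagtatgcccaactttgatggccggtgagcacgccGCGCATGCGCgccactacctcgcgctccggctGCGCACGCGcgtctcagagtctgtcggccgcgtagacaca
Man1b1 chr2:25332635-25332748: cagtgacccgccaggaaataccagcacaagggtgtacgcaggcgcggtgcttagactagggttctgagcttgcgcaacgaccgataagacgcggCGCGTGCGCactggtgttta

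The Pomt1 stretch holds 3 matches, of which 2 overlap as the forward and reverse reading of a single palindrome. The palindrome was centred 48 and 47 bp before the start of the main Pomt1 transcript, and the third match was centred 16 bp before it. The single Man1b1 match was on the minus strand, centred 4 bp past the start of the main Man1b1 transcript. Read on its own strand, this match was GCGCACGCG, the same 9 letters as the third Pomt1 match. The word and the stretches were chosen with these sequences in view. In the RefSeq promoters, taken from 250 bp before to 50 bp after the start of each gene, GCGCANGCG was present in 6.24% (2048 of 32817) and GCGCACGCG in 1.78% (584 of 32817). Among the 167 promoters of genes that the authors named at the peaks of ordinary pileup described below, the shares were 29.3% (49) and 9.58% (16). Other words were also more frequent there. GGGCGG was in 64.1% of the 167 promoters, beside 35.6% of all RefSeq promoters. For CACGTG the shares were 9.58% and 7.15%. The 2 sets of promoters were not matched for G and C content. A match is a description of the letters and does not show that the factor was bound.

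Position at the genes was described next. Pomt1 (ENSMUSG00000039254.16, chr2:32236590-32255005) and Man1b1 (ENSMUSG00000036646.13, chr2:25332338-25352212) lie on the plus strand with their peaks 6.90 Mb apart. The Pomt1 summit fell 47 bp past the start of the main coding transcript, in the 5′ UTR of exon 1 and 69 bp before the first base of the start codon. The authors had placed this peak upstream of the gene, and by the RefSeq model the summit was 3 bp before the start. The peak covered 4 of the 8 Pomt1 transcript starts annotated within 10 kb, and the starts of both shorter coding transcripts among them lay 400 and 702 bp past the summit. The name of the region, upstream or 5′ UTR, thus depended on the gene model.

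The Man1b1 summit fell 127 bp past the start of the main coding transcript, in the 5′ UTR of exon 1, and 4 bp before the first base of its start codon. The authors likewise gave the region as a 5′ UTR. By the RefSeq model the summit was 113 bp past the start. The peak covered 3 of the 5 Man1b1 starts annotated within 10 kb. Another coding transcript starts 518 bp before the summit, outside the peak, and for this transcript the summit was in an intron. The right edge of the peak was 99 bp past the summit, so its last bases were coding sequence of the main transcript.

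Both peaks also lay beside a second start, on the opposite strand. At Pomt1 the antisense RNA gene Gm13610, read from the minus strand, starts 74 bp before the left edge of the peak. At Man1b1 the lincRNA gene AA543186, also on the minus strand, starts 64 bp before the left edge. The AA543186 start lay 285 bp before the summit, inside the coding Man1b1 transcript that begins 518 bp before the summit. It was thus divergent from the main Man1b1 transcript but antisense to this other coding transcript. Neither non-coding start was inside a peak. A non-coding start on the opposite strand within 500 bp upstream of a coding transcript was annotated for 5.31% of protein-coding genes (1149 of 21646). The same held for 18 of 142 peaks (12.7%) with an ordinary pileup and a summit within 1 kb of a protein-coding start. This feature was picked after the annotation of both genes had been seen. Other genes within 10 kb were Prrc2b, which ends 1919 bp before the Pomt1 peak, and the snRNA gene Gm25220, which lies 6696 bp past the Man1b1 peak inside Man1b1. The map of both promoters shows these positions to scale.

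**Figure D1:**
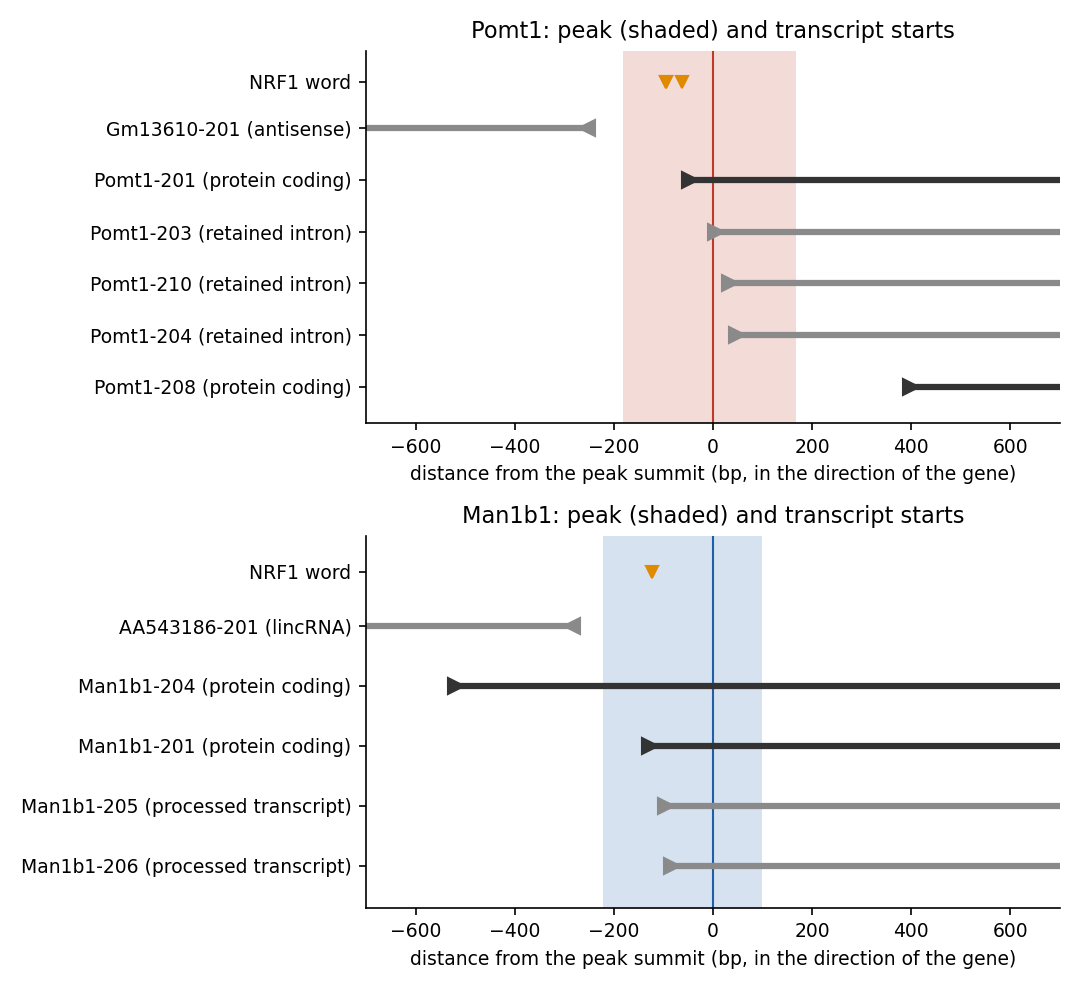
Annotated transcripts around the Pomt1 peak (top) and the Man1b1 peak (bottom), with distance from the summit in bp on the x axis; shading marks the peak, the vertical line its summit, arrowheads the transcript starts, dark lines coding and grey lines other transcripts, and triangles the NRF1 word. The summit lies 47 bp past the start of the main Pomt1 transcript and 127 bp past that of the main Man1b1 transcript, and the 2 minus-strand RNAs start just left of the peaks.

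The pileup is the number of ChIP fragments that cover the summit, with duplicates removed. It was 14 tags in the HDAC4 ChIP library at Pomt1 (exact Poisson 95% interval 7.65 to 23.5), against a local input background of 0.647 tags after scaling of the input to the ChIP depth. At Man1b1 it was 12 tags in the HDAC4 ChIP library (6.20 to 21.0), against 0.755 scaled tags in the input. Both genes thus rested on few fragments, and the interval of each pileup covered the pileup of the other.

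The background follows from the pileup and the fold enrichment of the table, and without scaling it came to 6 input tags at Pomt1 and 7 at Man1b1. It was a whole number within 0.0003 tags at 95 of the 188 peaks of ordinary pileup, Pomt1 and Man1b1 included. As tags per 1000000 kept tags (RPM), Pomt1 had 7.29 RPM in the HDAC4 ChIP library (3.99 to 12.2) and 0.337 in the input (0.124 to 0.734). Man1b1 had 6.25 RPM in the HDAC4 ChIP library (3.23 to 10.9) and 0.393 in the input (0.158 to 0.810). At each gene the counting intervals of ChIP and input did not overlap, which the choice of called peaks already required. The caller takes the genome-wide level, 2.83 input tags, as the lowest possible background. The backgrounds at Pomt1 and Man1b1 were 2.12 and 2.48 times this level, but the counting intervals of their input tags (2.20 to 13.1 and 2.81 to 14.4) covered it.

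**Figure D2:**
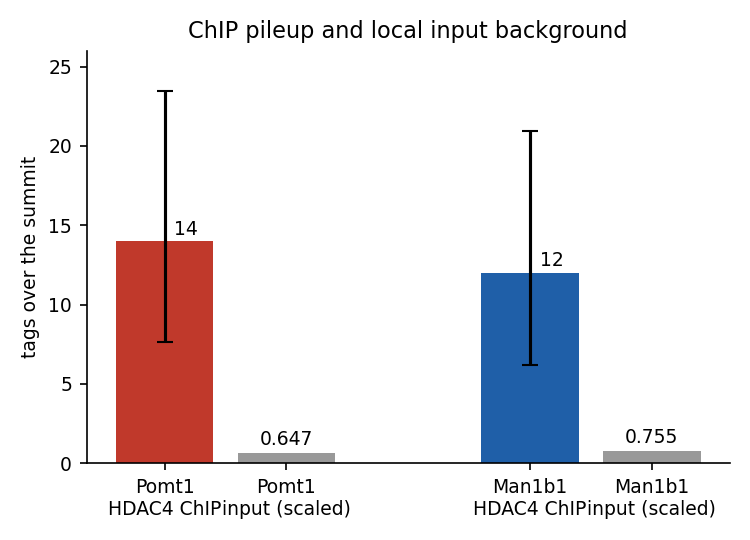
Tags over the summit (y axis) in the HDAC4 ChIP library (coloured bars, with exact Poisson 95% intervals) and in the input scaled to the same depth (grey bars) at Pomt1 and Man1b1. The ChIP bars stand at 14 and 12 tags and the input bars at 0.647 and 0.755 tags, from 1 library of each kind.

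The fold enrichment, which is the pileup plus 1 over the scaled background plus 1, was 9.11 at Pomt1 and 7.41 at Man1b1. With the background held fixed, the counting interval of the pileup gives 5.25 to 14.9 for Pomt1 and 4.10 to 12.5 for Man1b1, so the 2 genes could not be separated by fold. The size of the fold depends on the tag added to both terms. Without it the ratio of pileup to background was 21.6 at Pomt1 and 15.9 at Man1b1, outside these intervals. The peak caller's −log10 p was 15.2 for Pomt1 and 11.7 for Man1b1. Its −log10 q was 10.2 for Pomt1 and 6.82 for Man1b1, where the lowest value of any listed peak was 2.80.

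The depth of the libraries sets these limits. Of 10903000 ChIP tags 1920168 (17.6%) remained after duplicates at the same position had been dropped, against 17798166 of 19038793 input tags (93.5%). A pileup of at most 5 times the median of all 229 peaks was called ordinary, and 188 peaks on chromosomes 1 to 19 and X met this limit, Pomt1 and Man1b1 included. The remaining peaks had higher pileups or lay on other sequences. In the 188 peaks the pileup ran from 6 to 54 tags with a median of 10, the fold enrichment from 3.10 to 14.8 with a median of 6.84, and the unscaled background from 2.83 to 155 input tags with a median of 5.52. The pileup of Pomt1 was above and that of Man1b1 was at the upper quartile, 12 tags, and their backgrounds lay between the median and the upper quartile, 8 input tags.

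By fold enrichment Pomt1 was in place 13 of 229 and Man1b1 in place 63. By −log10 q the places were 55 for Pomt1 and 100 for Man1b1, and by pileup 68 for Pomt1 and 87 for Man1b1. Among the 188 peaks of ordinary pileup, the places by fold were 11 for Pomt1 and 59 for Man1b1, and by −log10 q they were 16 for Pomt1 and 60 for Man1b1. These places are loose. If the Pomt1 pileup stood at the ends of its counting interval, its place by fold among the 188 would be 1 or 178, and that of Man1b1 would be 4 or 186.

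The peaks next in the order are genes of other pathways. Pomt1 shared its place with Mef2a, which encodes a muscle transcription factor that binds class IIa deacetylases, as both had 14 ChIP tags and a background of 6 input tags. Just above stood a peak upstream of Safb and Safb2, scaffold attachment factors, with 15 tags and a fold of 9.75, and an intergenic peak assigned to Lrrc4c with 351 tags and a fold of 9.73. Just below stood Zfp358 with 12 tags and a fold of 9.08 and Stard10, a lipid transfer protein gene, with 11 tags and a fold of 9.07. Apart from that of Lrrc4c, these peaks had 11 to 15 tags.

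Man1b1 shared its place with Dmtn, which encodes the actin-bundling protein dematin, as both had 12 ChIP tags and a background of 7 input tags. Above it were Mycl, a MYC family gene, and Fjx1, tied at 10 tags and a fold of 7.43, and then Sp9, a zinc finger factor gene, with 9 tags and a fold of 7.41. Below it were Rasl10b with 9 tags and a fold of 7.38 and 2700054A10Rik with 23 tags and a fold of 7.33. The closest peaks by pileup and fold together, on the log2 scale, were Mef2a, 2310061I04Rik and Safb with Safb2 for Pomt1, and Dmtn, Hivep2 and Rabep1 for Man1b1. This likeness rests on 1 library pair.

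The lowest values that still entered the list were those of Cecr6, with a −log10 q of 2.80, 7 tags and a fold of 5.20, and of Zbtb21, with a −log10 q of 2.89, 9 tags and a fold of 5.07. Regions outside the cutoff of q = 0.01 were not analysed here. In the plot of pileup against fold Man1b1 lies within the main cloud of peaks, and Pomt1 lies at its upper edge, above the upper quartile of the fold (7.60).

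**Figure D3:**
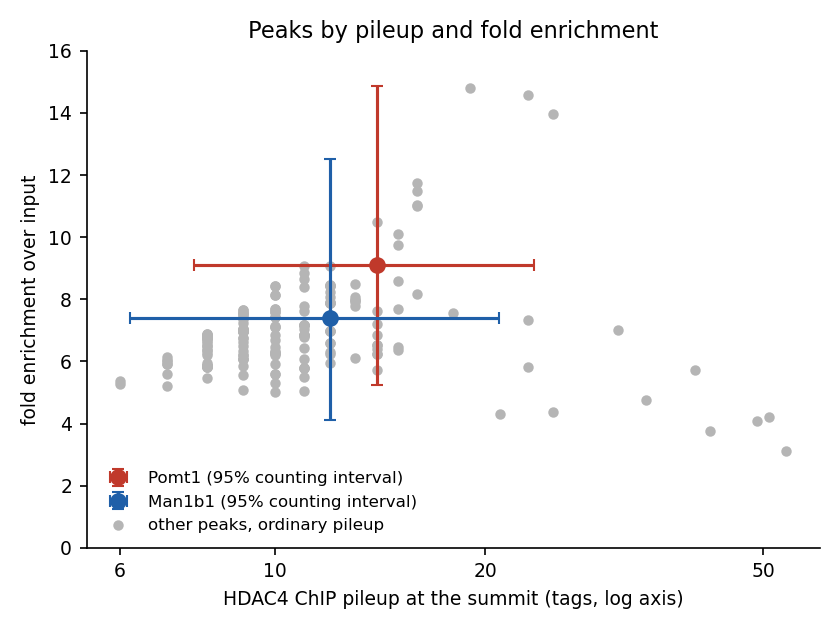
HDAC4 ChIP pileup at the summit in tags (x axis, log scale) and fold enrichment over input (y axis) for the 188 peaks of ordinary pileup; Pomt1 and Man1b1 are coloured, with 95% counting intervals, and each hides the tied peak, Mef2a or Dmtn. Pomt1 stands at 14 tags and a fold of 9.11 and Man1b1 at 12 tags and 7.41.

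Other peaks were distant from both genes. On chromosome 2 the peak nearest to Man1b1 was that of Edf1, 225 kb away, with 11 tags and a fold of 7.17, followed by Ehmt1, 413 kb away on the other side, with 16 tags and a fold of 11.0. Ehmt1 encodes a histone methyltransferase. The nearest to Pomt1 was again Edf1, at 6679 kb. The 21 peaks of ordinary pileup on chromosome 2 had a median of 10 tags and a median fold of 7.17, and both genes were above these medians.

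Base composition did not enter the choice of the genes by name, and the G and C content was much alike at both summits. In the 100 bp to either side of the summit the G and C content was 66.7% at Pomt1 and 66.2% at Man1b1, against a median of 70.1% (quartiles 65.2% and 74.6%) in the 188 peaks of ordinary pileup. Pomt1 had 27 CpG dinucleotides and Man1b1 had 21, against a median of 21 (quartiles 14.8 and 27). At both genes the G and C content was below the lower quartile (67.3%) of the 142 peaks within 1 kb of a start. It was also below the lower quartile (67.2%) of the 21 peaks of ordinary pileup on chromosome 2. The RefSeq promoters of both genes had 61% G and C and 33 CpG each, and 73.1% of RefSeq promoters had a lower G and C content. Summits near a start were common in the list. Of the 188 peaks 142 (75.5%) had the summit within 1 kb of a protein-coding start, 62 (33.0%) as close as Man1b1 or closer, and 35 (18.6%) as close as Pomt1 or closer.

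**Figure D4:**
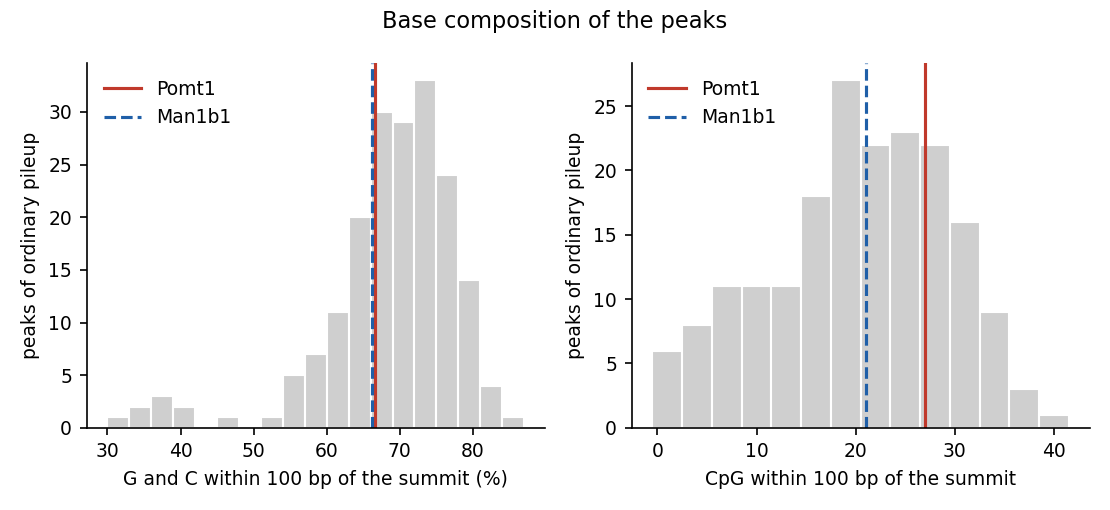
Histograms of G and C content (left, in %) and CpG number (right) in the 100 bp to either side of the summit of the 188 peaks of ordinary pileup, with Pomt1 (solid line) and Man1b1 (dashed line) marked. Pomt1 lies at 66.7% and 27 CpG and Man1b1 at 66.2% and 21 CpG, inside the bulk of these 188 peaks.

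Of 10 words searched on both strands, few others were found at the genes. GGGCGG, the core of the SP and KLF site, was found 3 times in the Man1b1 promoter, once within 100 bp of its summit and not at Pomt1. It was present in 35.6% of RefSeq promoters and in 52.1% of the 188 summit windows. The E-box CACGTG was found once in the Pomt1 promoter, 156 bp before the start of the main transcript and outside the peak, and was present in 7.15% of RefSeq promoters. The MEF2 word CTAAAAATA was in neither promoter nor summit window, and was present in 0.518% of RefSeq promoters and 2.13% of summit windows (4 of 188). The NRF1 word, absent from the summit window of Man1b1 because it lies 123 bp before the summit, was in 17.0% of the windows (32 of 188). The other 6 words were in neither promoter. Their shares of RefSeq promoters were 8.86% for the ETS word CCGGAAG, 16.3% for the myogenic E-box CAGCTG, 1.79% for the cAMP response element TGACGTCA, 37.4% for the NF-Y word CCAAT, 1.40% for the YY1 word AAGATGGCG and 0.676% for TGACGTGG, a word of the unfolded protein response factors. No match says only that these letters are not in the window.

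The partners of both enzymes were then looked up in 3 lists of glycosylation genes. By the authors' annotation 0.748% of protein-coding genes had a peak (164 of 21924). In the O-mannosylation list, which holds the enzymes that build the dystroglycan glycan, their donors and dystroglycan, 1 of 19 genes had a peak, and it was Pomt1. In the list of N-glycan trimming and glycoprotein quality control, 1 of 26 had a peak, and it was Man1b1. In the list of N-glycan assembly, which covers the lipid-linked precursor and oligosaccharyltransferase, 0 of 31 had a peak. As both genes were chosen for having a peak, nothing can be read from the first 2 counts, and with them set aside no gene of the 3 lists had a peak. At a share of 0.748%, few or no genes with a peak would be found in lists this short. The absence is therefore not a result about the lists.

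Counts by distance were made as well. With a summit within 1 kb of a start site the counts were again 1, 1 and 0, beside 0.765% of all protein-coding genes, and within 10 kb they were 1, 1 and 0, beside 1.07%. Within 100 kb they were 2, 2 and 0, beside 4.26%. All these counts include Pomt1 and Man1b1, which were chosen for having a peak, so they cannot be compared with the shares of all genes. The genes added at 100 kb were B4gat1, which encodes a glucuronyltransferase of the dystroglycan glycan, and Calr, which encodes the lectin chaperone calreticulin. With Pomt1 and Man1b1 set aside, they were the only list genes within 100 kb, from 18 genes for O-mannosylation, 25 for N-glycan trimming and 31 for N-glycan assembly. The lists are too short to set this count apart from the 4.26% of all protein-coding genes. The B4gat1 start was 45.7 kb from a peak with 14 tags and a fold of 10.5 that the authors assigned to Npas4. The Calr start was 25.6 kb from a peak with 9 tags and a fold of 7.22 that they assigned to Syce2.

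For the list genes other than Pomt1 and Man1b1, the median distance to the nearest summit was 2384 kb for O-mannosylation (18 genes), 3759 kb for N-glycan trimming (25 genes) and 3950 kb for N-glycan assembly (31 genes), beside 3367 kb over 21646 protein-coding genes. After B4gat1 and Calr the nearest in the first 2 lists were Pomgnt2, which encodes a glycosyltransferase that extends the O-mannose, at 169.8 kb, Derl2 at 174 kb and Syvn1 at 179.8 kb, the last 2 encoding proteins of glycoprotein degradation. The genes that follow were picked for their roles after their values had been seen. Pomt2, the partner subunit of POMT1, was 10439 kb from the nearest summit, and Dag1, which encodes dystroglycan, was 736 kb from it. Dpm2, a subunit of the synthase that makes the mannose donor, was 334 kb from the nearest summit, which was that of Pomt1. Dpm1 and Dpm3, the other subunit genes of this synthase, were 3769 and 638 kb from a summit. For Man1a, Man1a2 and Man1c1, which encode Golgi mannosidases of the same family as MAN1B1, the distances were 4736, 12063 and 453 kb. Edem1, Edem2 and Edem3, whose products also act in glycoprotein degradation, were at 5179, 3759 and 2145 kb.

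**Figure D5:**
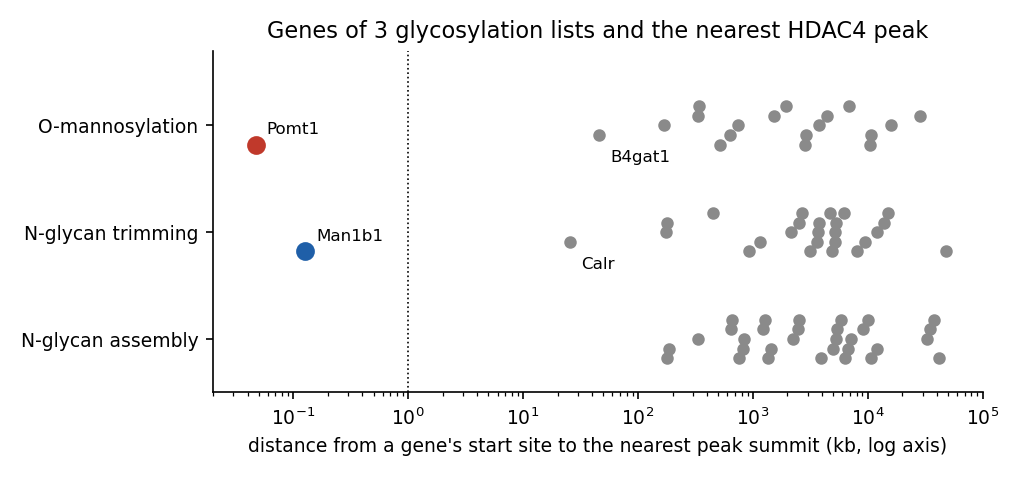
Distance in kb (x axis, log scale) from the start site of each gene of the 3 lists to the nearest HDAC4 peak summit, 1 point for each gene, with a dotted line at 1 kb. Pomt1 and Man1b1 are the 2 genes left of the line, and B4gat1 and Calr, at 45.7 and 25.6 kb, are the next nearest in their lists.

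Expression of Pomt1 and Man1b1 was not measured in these libraries, so the signals describe HDAC4 ChIP over input at the promoters and not the output of the genes.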

How the data were processed

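DNA of 1 HDAC4 ChIP library and 1 input library of C2C12 cells was sequenced. By the submitters' processing notes, mm10 was the build and MACS2, Bowtie2, cutadapt and CASAVA 1.8.2 were the tools, and the header gives MACS 2.1.0.20150316, tags of 50 bp, fragments of 297 bp and a q cutoff of 0.01. The authors deposited 1 annotated list of 229 peaks, called on single libraries, with the pileup signal in tags. The deposited fold enrichment is a ratio to the local input, and the deposited −log10 p and −log10 q are those of the caller. A second table of the peaks was not used here.

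The input background was computed as (pileup + 1) / fold − 1, and the Poisson −log10 p recomputed from it differed by at most 0.000142. The mitochondrial peak ended at base 16299, the length of that sequence in GRCm38. Gene models were from GENCODE M21, where 76 of 76 list genes were matched. Promoter sequences of 2 of 2 genes were from RefSeq. The genes, lists and words were chosen with earlier results of these data known. Some genes were named by rule: both genes, genes within 10 kb and list genes with a peak within 100 kb. The rule also took the 2 peaks above and the 2 below in fold, the 3 most alike, and the 2 nearest the cutoff. Outside it were Fjx1, tied in fold with Mycl, and the nearest peaks on chromosome 2. Further list genes with their distances and the other glycosyltransferase genes were also outside it. Gene models, windows, pseudocounts, ranks and distances were varied. Functions were checked on simulated data. Python 3.11.15, scipy 1.17.1, pysam 0.24.0, samtools 1.23.1 and matplotlib 3.10.9 were used.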

Additional observations from a re-analysis of the deposited data

How the results depend on the processing

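Of 37 alternatives tried, 5 moved a value past its limit, which was the counting interval for folds and places, 148.5 bp (a fragment length over 2) for distances, the binomial interval for G and C content and 1.5 times for counts. The limit for places was so wide that hardly any place could pass it, and Pomt1 went to place 55 by −log10 q and 68 by pileup, beside 13 by fold. Subsets of the peaks also could not raise a count of list genes, so neither kind of alternative shows stability. Without a pseudocount the fold enrichment was 21.6 at Pomt1 and 15.9 at Man1b1. Counting list genes by a summit within 100 kb gave 2 genes for O-mannosylation and 2 for N-glycan trimming, Pomt1 and Man1b1 included. Measured from the gene's 5′ end, the Man1b1 summit lay 518 bp past the start. With the starts of all transcripts, the Pomt1 summit lay 6 bp before the nearest start (value -6). No replicate could be left out, and no paired fit could be made, since there was 1 ChIP and 1 input library. With 14 and 12 ChIP tags, the order of the 2 genes among peaks was not resolved at this depth.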

Other observations

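Other glycosyltransferase genes outside the 3 lists were noticed in the peak table after its values had been seen. Galnt3, which starts mucin-type O-glycans, had a peak in its 5′ UTR with 10 tags (exact Poisson 95% interval 4.80 to 18.4) and a fold of 7.59, at place 52 of 229. Fut11, a fucosyltransferase family gene, had an exonic peak with 12 tags (6.20 to 21.0) and a fold of 7.89, at place 39. B3galt6, a galactosyltransferase gene of the proteoglycan linker, had an exonic peak with 8 tags (3.45 to 15.8) and a fold of 6.90, at place 93. Their summits lay 267, 588 and 439 bp past a start site of the gene, farther than those of Pomt1 and Man1b1. The NRF1 word was within 100 bp of the summit of Galnt3 and in neither of the other 2. A peak that the authors assigned to Dpy19l1 was intergenic, with 49 tags, a fold of 4.09 and only 38.8% G and C.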
